A study of Mus musculus with 54 samples.

Results

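Repopulated microglia (MG) of Ccr2-/- mice were compared with resident, never depleted MG of Ccr2-/- mice, both after endotoxin. The comparison used 6 of the 54 bulk RNA-seq libraries of the series, chosen by the mouse and cell type in the library name, with 3 libraries of each kind. The repopulated MG came from mice B2m, B3m and B4f, which received BLZ945, a blocker of CSF1 receptor signalling used here to remove brain macrophages. The resident MG came from mice V1m, V2m and V4f, which received the vehicle (CTL). All 6 mice carried the Ccr2 knockout in every cell, were injected with lipopolysaccharide (LPS) 8 weeks after the end of treatment, and were perfused 12 h later. Every library was 1 mouse, and the m or f that ends a mouse name was mixed in the same way in both groups. Ccr2-/- MG of 3 untreated mice injected with PBS entered the same fit. Untreated mice received neither vehicle nor BLZ945, so contrasts with them combine LPS with the vehicle or with BLZ945 and repopulation. The series held no repopulated Ccr2-/- MG without LPS, so the LPS response of repopulated MG could not be estimated by itself. The question was whether MG that have refilled an emptied brain, in mice whose monocytes lack the receptor Ccr2, hold another transcriptome after LPS than MG that were never removed.

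MG are the macrophages of the brain parenchyma and depend on CSF1 receptor signals to survive. After depletion they return mainly by division of surviving MG. LPS is sensed by Toll-like receptor 4, and MG answer by lowering homeostatic genes such as P2ry12 and by inducing cytokines, acute phase genes and interferon-stimulated genes. Ccr2 is the chemokine receptor by which monocytes leave the bone marrow, so that its loss leaves few monocytes in the blood.

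The 6 libraries held 7957064 to 11330781 counts, and 11558 genes passed the filter on low counts. Correlations of log2 CPM across these genes were 0.954 to 0.977 between libraries of one group and 0.956 to 0.975 between libraries of different groups. Library titles named the other cell type than the cell type label did. The levels of MG markers followed the label, with Tmem119 at 1668.7 to 3826.3 TMM-scaled CPM (counts relative to the library total, scaled further for library composition) in the 6 libraries. Levels below are on that scale unless called plain CPM. Of the 15 sdCAM markers (sdCAMs are the macrophages of the leptomeninges and perivascular spaces), Cd209f was at 0 in all 6 libraries and Lyve1 at 0 in 5 of 6. Others of the list were present in MG, such as Stab1 at 208.65 to 315.55 plain CPM, Dab2 at 192.47 to 470.53, Maf at 93.25 to 209.7 and Siglec1 at 43.6 to 66.66. The targeted gene, Ccr2, was low in MG of either genotype. It lay at 5.04, 5.24 and 4.60 CPM in CTL and at 2.64, 3.36 and 6.75 CPM in BLZ945 libraries labelled Ccr2-/-, and at 6.13, 3.54 and 0.83 CPM in WT CTL libraries. Ccr2 thus did not separate the genotypes in MG, and the libraries are called Ccr2-/- by their labels. In bulk RNA, fewer cells expressing a gene and less RNA per cell cannot be told apart.

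Repopulated and resident Ccr2-/- MG differed in few genes. Only Apoe and Ptger3 passed the test between repopulated and resident Ccr2-/- MG, Apoe higher and Ptger3 lower after BLZ945. A gene was called in edgeR where its adjusted p was under 0.05 and its level moved by a log2 fold change beyond 1 in either direction, and these 2 genes were 0.0173% of those tested, 0.00865% in each direction. The count was also 2 with no limit on the fold change. At an unadjusted p under 0.05 there were 769 genes (6.65%), 352 higher (3.05%) and 417 lower (3.61%). The groups did not overlap for 1113 genes (9.63%), 511 higher (4.42%) and 602 lower (5.21%) after BLZ945. The median standard error of a log2 fold change was 0.247, so that moderate differences of single genes were mostly beyond reach. DESeq2 on the same libraries made 26 calls (0.228% of 11397 genes), 15 higher and 11 lower.

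Apoe encodes apolipoprotein E, the main lipid carrier of the brain, and is a leading gene of disease-associated MG. Its level was 263.8, 267.0 and 340.0 CPM in CTL libraries and 666.0, 721.5 and 558.9 CPM in BLZ945 libraries. Every BLZ945 library lay above every CTL library. Apoe rose 2.22-fold (log2 fold change 1.15, SE 0.164, edgeR adjusted p = 0.0395, n = 3 and 3). Untreated MG held 424.6, 313.6 and 313.6 CPM, and CTL MG after LPS did not differ from them past the threshold (log2 fold change -0.31, edgeR adjusted p = 0.158). Repopulated MG after LPS lay above untreated MG by a log2 fold change of 0.84 (edgeR adjusted p = 0.00106). The call for Apoe was lost without V1m (edgeR adjusted p = 0.436), V2m (0.328), V4f (0.0723), B3m (0.146) or untreated mouse 3m (0.0808), at log2 fold changes of 1.07, 1.10, 1.27, 1.08 and 1.15. It was also lost in the fit of the 6 libraries alone (edgeR adjusted p = 0.0775) and with the letter m or f of the mouse name as a covariate (0.0653).

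Ptger3 encodes EP3, a receptor for prostaglandin E2. It had 0 counts in all 3 BLZ945 libraries and 2.95, 5.98 and 4.39 CPM in the CTL libraries. Untreated MG held 24.25, 17.42 and 16.76 CPM. Against untreated MG, Ptger3 was lower in resident MG after LPS (log2 fold change -2.17, edgeR adjusted p = 0.00144), and it was not detected in repopulated MG after LPS. Against a floor of 3 counts per library, it was at least 11.9-fold lower in repopulated than in resident MG (edgeR adjusted p = 0.011). The call was lost without B3m (edgeR adjusted p = 0.0602), in the fit of the 6 libraries alone (0.124) and in the fit of all 18 Ccr2-/- libraries (0.149).

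**Figure D1:**
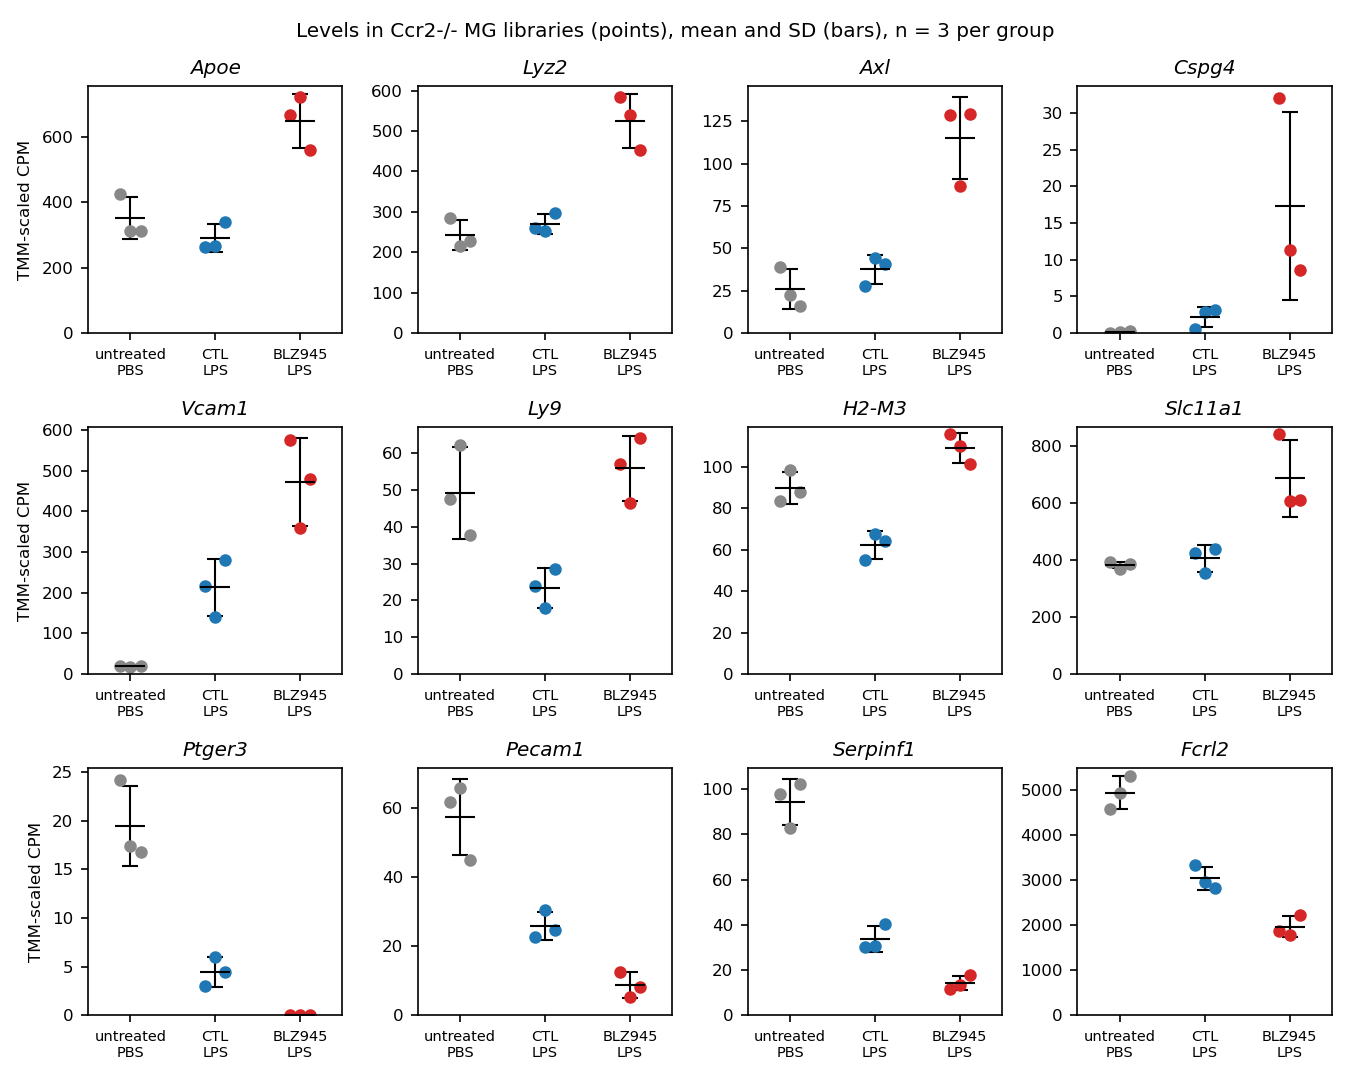
Levels of 12 genes in Ccr2-/- MG in TMM-scaled CPM, by group, with points for libraries and bars for mean and SD (n = 3). In the upper 2 rows, the BLZ945 libraries lie above all CTL libraries, as for Apoe at 558.9 to 721.5 against 263.8 to 340.0 CPM, and in the bottom row they lie below them. Only Apoe and Ptger3 passed the test in edgeR.

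Next to these, 28 of the 11558 genes tested had an unadjusted p under 0.001, 12 higher and 16 lower in repopulated MG, Apoe and Ptger3 included. They were picked for these p-values, and their values in Ccr2-/- MG are a description. Among that many tests some genes reach such a p by chance, and how many did so here was not estimated. The 26 others had edgeR adjusted p-values between 0.0733 and 0.4. In DESeq2 on the same libraries, each of them had an adjusted p under 0.05, from 6.98e-06 for Lyz2 to 0.0489 for Slc35e3. Whether they passed thus depended on the test. They are not the same set as the 26 DESeq2 calls, which also had to meet the fold limit.

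Lyz2, the lysozyme of macrophages, lay at 261.0, 252.1 and 298.2 CPM in CTL and at 584.1, 539.5 and 453.1 CPM in BLZ945 libraries (1.93-fold, edgeR adjusted p = 0.0733). Axl, a receptor tyrosine kinase for the clearance of dying cells, lay at 27.84, 44.26 and 40.79 CPM in CTL and at 129.1, 87.11 and 129.7 CPM in BLZ945 libraries (3.03-fold, edgeR adjusted p = 0.161). Slc11a1, a metal transporter of phagosomes, was at 426.6, 353.4 and 440.2 CPM in CTL and 843.3, 608.1 and 611.1 CPM in BLZ945 libraries. In these 3 genes CTL MG after LPS did not differ from untreated MG past the threshold (edgeR adjusted p = 0.572, 0.212 and 0.834), with untreated Lyz2 at 214.2 to 283.7 CPM.

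Vcam1, a ligand of integrins on leukocytes, was at 18.42 to 20.85 CPM in untreated MG, at 217.5, 141.3 and 280.8 CPM in CTL and at 575.5, 359.1 and 480.2 CPM in BLZ945 libraries. After LPS, Vcam1 was above untreated MG in both kinds of MG, by a log2 fold change of 3.37 in resident and 4.51 in repopulated MG (edgeR adjusted p = 3.01e-07 and 3.12e-08, both against the same untreated libraries). Cd72, a lectin-like inhibitory receptor, was at 81.28 to 101.4 CPM in CTL and 141.8 to 205.7 CPM in BLZ945 libraries. Ly9, a receptor of the SLAM family, and H2-M3, a nonclassical class I molecule that presents formylated peptides, had another order. Ly9 lay at 37.72 to 62.38 CPM in untreated MG, at 17.83 to 28.59 CPM in CTL and at 46.51 to 64.20 CPM in BLZ945 libraries. H2-M3 lay at 83.41 to 98.43 CPM in untreated MG, at 54.83 to 67.64 CPM in CTL and at 101.5 to 115.7 CPM in BLZ945 libraries. Both genes were lower in resident MG after LPS than in untreated MG (log2 fold changes -1.11 and -0.57, edgeR adjusted p = 0.00227 and 0.0107). In repopulated MG after LPS the log2 fold changes against untreated MG were 0.13 and 0.23 (edgeR adjusted p = 0.693 and 0.268). That adjusted p alone, with no fold limit, was met by 34.9% of genes in resident and 38.1% in repopulated MG. Cspg4, the NG2 proteoglycan, was at 0.57, 2.83 and 3.10 CPM in CTL and at 32.06, 11.25 and 8.63 CPM in BLZ945 libraries.

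Serpinf1, Pecam1, Fcrl2 and Crybb1 led the lower side among genes that were also lower in resident MG after LPS than in untreated MG (edgeR adjusted p = 5.6e-05, 0.0039, 0.000392 and 3.18e-07). Serpinf1, which encodes the secreted factor PEDF, lay at 83.01 to 102.4 CPM in untreated MG, at 30.12, 30.41 and 40.15 CPM in CTL and at 11.71, 13.22 and 17.60 CPM in BLZ945 libraries (edgeR adjusted p = 0.104). Pecam1, the adhesion molecule CD31, lay at 44.92 to 65.79 CPM in untreated MG, at 22.61, 30.52 and 24.52 CPM in CTL and at 12.59, 5.34 and 8.19 CPM in BLZ945 libraries. The MG gene Fcrl2 was at 3328.1, 2970.5 and 2829.3 CPM in CTL and 1879.8, 1779.1 and 2222.7 CPM in BLZ945 libraries. Crybb1, another MG gene, was at 58.67 to 71.73 CPM in CTL and 36.65 to 48.59 CPM in BLZ945 libraries, against 286.1 to 306.4 CPM in untreated MG. Rab3gap2, a subunit of an activator of Rab3 GTPases, did not follow this order, since it lay at 48.27 to 61.18 CPM in untreated, 55.57 to 58.20 CPM in CTL and 25.77 to 34.98 CPM in BLZ945 libraries.

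Pecam1 is also a marker of endothelium, and the summed endothelial and mural markers were 27.01 to 34.42 plain CPM in CTL and 10.44 to 13.07 plain CPM in BLZ945 libraries (exact two-sided permutation p = 0.1, adjusted 0.275 over 11 lists). Pecam1 is itself in this sum, at 21 to 29.29 plain CPM in CTL and 4.83 to 10.81 plain CPM in BLZ945 libraries. In plain CPM the fall of the sum is thus largely that of Pecam1, and the sum is not a separate result. Only 3 of these 14 markers passed the low-count filter, Pecam1 among them. All 3 had negative log2 fold changes, with a median of -1.73 (-1.01 in WT MG). Of the 3, 2 were lower without overlap (5.21% of all genes were), and 1, Pecam1, had an unadjusted edgeR p under 0.05. The part of endothelial RNA in the result for Pecam1 was not tested. Apoe and Lyz2 are far higher in sdCAMs than in MG, with Apoe at 10708.4 to 17902.5 plain CPM in sdCAMs of the same 6 mice. The sum of 7 sdCAM markers that were at most 12.5 plain CPM in MG (Mrc1, Pf4, Lyve1, Cd163, F13a1, Cbr2 and Folr2, chosen after their values were seen) was 0.191 to 0.227% of the level in sdCAMs of the same mouse in CTL MG and 0.181 to 0.316% in BLZ945 MG. At these shares, sdCAM RNA would amount to 20.5 to 27.0 plain CPM of Apoe in CTL and 27.7 to 56.5 plain CPM in BLZ945 libraries, where 245.0 to 317.2 and 532.5 to 653.5 plain CPM were measured. Cd36 (1.59 to 11.39 plain CPM), Cd209b (0 to 0.21) and Cd209f (0) were also that low in MG but were left out. Cd36 was at 14.58 to 93.28 plain CPM in sdCAMs, a smaller distance. Markers picked for low levels in MG set no upper limit on sdCAM RNA, and its part in the result for Apoe was not tested. All 15 sdCAM markers together summed to 712.0 to 913.5 plain CPM in CTL and 717.6 to 907.5 plain CPM in BLZ945 libraries. Mrc1, the mannose receptor, was at 1.77 to 2.44 CPM in BLZ945 and 3.71 to 5.78 CPM in CTL MG. Summed monocyte markers were 160.8 to 181.7 plain CPM in CTL and 261.0 to 364.8 plain CPM in BLZ945 libraries (exact two-sided permutation p = 0.1, adjusted 0.275). Ms4a4c and Fn1 made up most of this sum, whereas Ly6c2 was at 0 to 1.07 CPM and S100a4 at 0 to 1.33 CPM. Of the 6 monocyte markers tested, only 2, Ms4a4c and Fn1, had a positive log2 fold change. The list median was -0.33 in Ccr2-/- and 0.86 in WT MG. Summed neutrophil markers were 462.9 to 518.8 plain CPM in CTL and 558.7 to 972.5 plain CPM in BLZ945 libraries, nearly all of it Il1r2, and Ly6g was at 0 in all 6 libraries. Summed astrocyte markers were 380.9 to 395.5 plain CPM in CTL and 290.8 to 379.9 plain CPM in BLZ945 libraries. The smallest p that 3 libraries against 3 allow is 0.1, and the part of these sums in the results was not tested.

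WT MG gave the same comparison in mice that share no library with the Ccr2-/- mice. Of the 28 genes, 27 had the same direction in WT MG, and 16 (57.1%) also had an unadjusted p under 0.05 there. Among the 11232 other genes tested in both genotypes, 56.1% had the same direction and 4.65% also had such a p in WT MG. Apoe lay at 166.5, 147.4 and 113.0 CPM in WT CTL and at 383.7, 344.0 and 362.0 CPM in WT BLZ945 libraries (log2 fold change 1.35, SE 0.181, edgeR adjusted p = 0.0385). Ptger3 had 0 counts in the 3 WT BLZ945 libraries as well, against 1.68, 5.69 and 2.68 CPM in WT CTL libraries (edgeR adjusted p = 0.0629). Lyz2, Axl and Pecam1 were called in WT MG, with log2 fold changes of 1.08, 2.13 and -2.15 (edgeR adjusted p = 0.0385, 0.0422 and 0.0385). WT MG had 9 calls (0.0763%), 7 higher (0.0594%) and 2 lower (0.017%). These calls rested on single libraries, since the count was 0 without WT CTL replicate 3, WT BLZ945 replicate 2 or WT BLZ945 replicate 3 and 1 without WT BLZ945 replicate 1. Some genes of the lower side had smaller values in WT MG. Rab3gap2 had a log2 fold change of -0.91 in Ccr2-/- and -0.18 in WT MG, Crybb1 of -0.72 and -0.10, and Arhgef10l of -1.42 and -0.41. Snx33, a sorting nexin, was the 1 gene of opposite sign, at -3.19 and 0.18, with 0.23 to 0.44 CPM in Ccr2-/- BLZ945 libraries.

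The difference between the genotypes was tested itself. No gene of 12423 was called in edgeR (0%), and 494 (3.98%) had an unadjusted p under 0.05. In DESeq2 no gene was called either, and 639 had such a p, where 16427 genes were tested. The difference of log2 fold changes, Ccr2-/- minus WT, was -0.19 for Apoe, -0.12 for Lyz2, -0.51 for Axl, -0.72 for Rab3gap2 and -3.37 for Snx33 (edgeR adjusted p = 1 for each). With 3 libraries a group, this does not show that the genotypes responded alike.

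**Figure D2:**
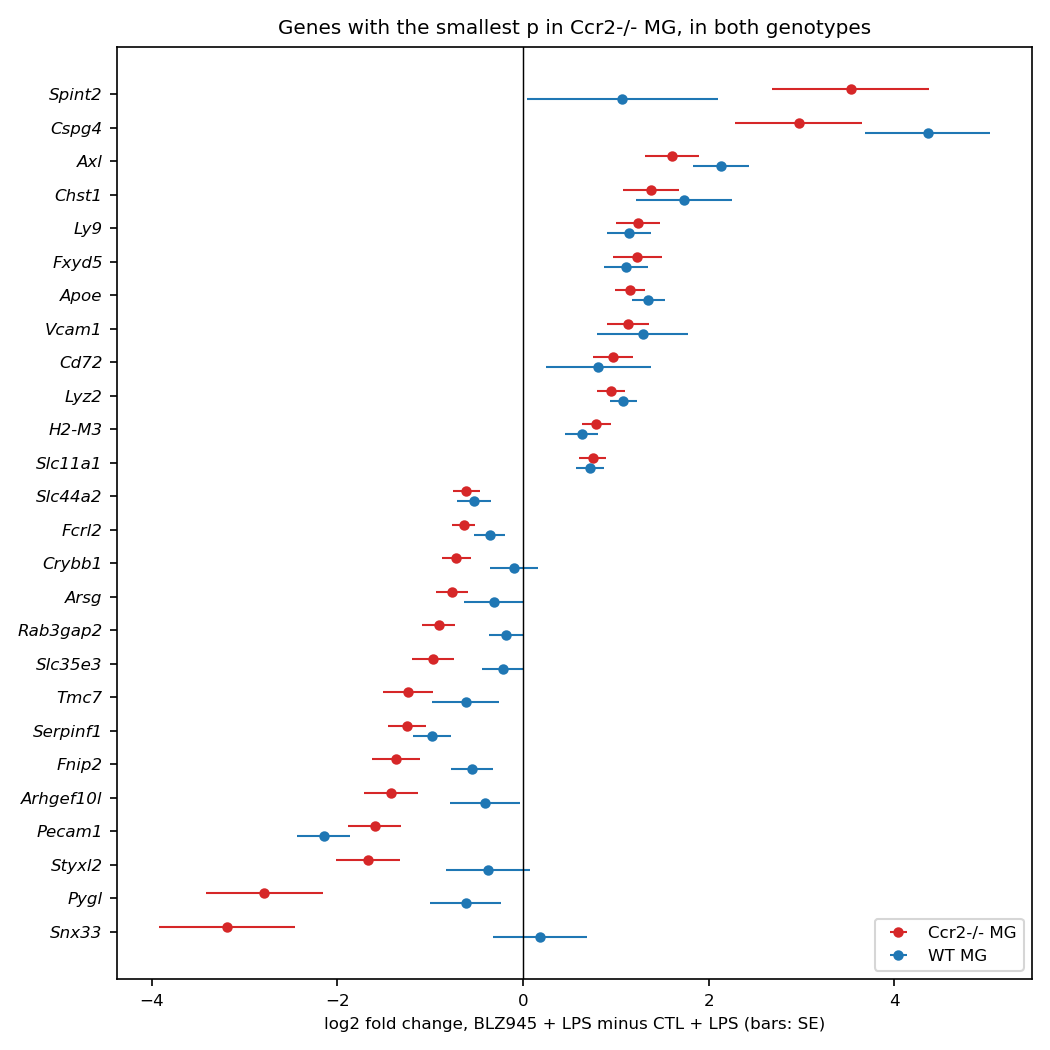
Log2 fold changes between BLZ945 and CTL MG after LPS, with SE bars, for 26 of the 28 genes with the smallest p in Ccr2-/- MG (red) and for the same genes in WT MG (blue). Ptger3 and Dlc1 are left out because all Ccr2-/- BLZ945 libraries had 0 counts. Among the genes shown, Snx33 alone has opposite signs, at -3.19 and 0.18.

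The average of the BLZ945 effect in both genotypes was then fitted over all 18 MG libraries. This fit was added after the data were seen. It made 23 calls (0.185% of 12423 genes), 15 higher (0.121%) and 8 lower (0.0644%). Without the fold limit it made 39 (0.314%), 26 higher (0.209%) and 13 lower (0.105%). By the adjusted p alone, Apoe, Lyz2, Axl, Ly9, Slc11a1, H2-M3 and Fxyd5 rose and Ptger3, Pecam1, Serpinf1 and Fnip2 fell in this average, with edgeR adjusted p-values from 4.58e-05 for Apoe and Lyz2 to 0.0109 for Fnip2. Further genes passed that were weaker in Ccr2-/- MG alone. Fn1, which encodes fibronectin, lay at 47.80, 57.05 and 45.82 CPM in Ccr2-/- CTL and 151.8, 56.72 and 111.7 CPM in BLZ945 libraries, so that the groups overlapped, and passed in the average (log2 fold change 1.42, edgeR adjusted p = 0.00431). P2ry14, a receptor for UDP-glucose, was at 3.46 to 6.94 CPM in CTL and 10.10 to 17.93 CPM in BLZ945 libraries (average log2 fold change 2.15, edgeR adjusted p = 0.0035). Clec7a, the beta-glucan receptor Dectin-1, was at 15.31 to 35.55 CPM in CTL and 43.38 to 79.20 CPM in BLZ945 libraries (average 1.43, edgeR adjusted p = 0.0254). Csf2ra, a subunit of the GM-CSF receptor, was at 82.64 to 102.7 CPM in CTL and 143.0 to 166.2 CPM in BLZ945 libraries (average 0.66, edgeR adjusted p = 0.0222). Gpd1, a cytosolic glycerol-3-phosphate dehydrogenase, was lower, at 27.73 to 38.38 CPM in CTL and 12.29 to 17.28 CPM in BLZ945 libraries (average -1.10, edgeR adjusted p = 0.0271). Vcam1 and Cd72 did not pass in the average (edgeR adjusted p = 0.108 and 0.367).

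Promoters are shown for Apoe and Ptger3, which passed the test, and for Lyz2 and Axl, chosen after their values were seen from the higher genes that were also called in WT MG. Each run holds the 250 bases before the first listed start in RefSeq (build GRCm38.p6), 5′ to 3′ on the strand of the gene, and capitals mark the PU box GAGGAA or its reverse complement TTCCTC, the core that the myeloid factor PU.1 binds. The Apoe window is chr7:19699189-19699438 on the minus strand, Axl chr7:25788734-25788983 minus, Lyz2 chr10:117282273-117282522 minus and Ptger3 chr3:157566626-157566875 plus.
Apoe: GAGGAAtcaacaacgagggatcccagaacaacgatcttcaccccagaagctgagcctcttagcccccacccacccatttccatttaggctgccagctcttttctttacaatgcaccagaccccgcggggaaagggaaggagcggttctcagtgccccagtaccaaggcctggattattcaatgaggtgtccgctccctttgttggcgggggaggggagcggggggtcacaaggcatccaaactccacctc
Axl: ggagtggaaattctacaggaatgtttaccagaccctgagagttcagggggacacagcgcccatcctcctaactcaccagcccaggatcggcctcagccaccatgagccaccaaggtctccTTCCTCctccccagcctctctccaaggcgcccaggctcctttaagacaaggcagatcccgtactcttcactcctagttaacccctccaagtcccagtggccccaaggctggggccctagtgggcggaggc
Lyz2: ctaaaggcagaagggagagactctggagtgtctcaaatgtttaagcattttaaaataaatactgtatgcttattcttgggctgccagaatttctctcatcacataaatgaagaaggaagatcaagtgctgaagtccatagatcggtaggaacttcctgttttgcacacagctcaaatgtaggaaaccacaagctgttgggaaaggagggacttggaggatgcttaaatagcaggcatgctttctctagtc
Ptger3: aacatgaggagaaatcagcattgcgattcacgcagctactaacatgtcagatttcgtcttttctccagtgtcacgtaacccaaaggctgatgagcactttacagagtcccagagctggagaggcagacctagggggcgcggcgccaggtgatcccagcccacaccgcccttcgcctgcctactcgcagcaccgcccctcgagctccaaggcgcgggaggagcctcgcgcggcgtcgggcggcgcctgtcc
GAGGAA stood on either strand in 1 place each in the Apoe and Axl windows and in no place in those of Lyz2 and Ptger3. For the shares that follow, a gene counted if the motif stood within 250 bases before any of its listed starts. These shares therefore also depend on the number of starts listed per gene. Of the 26 genes that rose in the average, 22 had a listed promoter and 11 of these (50.0%) held GAGGAA. Of the 13 that fell, 7 had one and 2 (28.6%) held it. The share was 26.1% among 9114 genes tested in Ccr2-/- MG and 25.9% among all 27025 genes with a listed promoter. A second motif, the interferon-stimulated response element searched as GAAA, any 2 bases and GAAA, stood in 1 of the 22 (4.55%) and in 0 of the 7, against 3.41% of the genes tested. These matches are of letters only.

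Gene groups were described by counts and medians beside those of all genes, whose median log2 fold change was 0 with quartiles of -0.21 and 0.19. Among 26 disease-associated MG genes, 24 were tested and 1, Apoe, passed. An unadjusted p under 0.05 was reached by 9 in the higher direction (37.5%, against 3.05% of all genes) and by 1, Csf1, in the lower. The list median was 0.18, and 0.26 in WT MG. It was 0.11 without B3m and 0.29 without B4f. Members at that p were Apoe, Lyz2, Axl, Cd52, Ch25h, Clec7a, Fth1, Tyrobp and Ctsd. Other defining members had log2 fold changes near 0, as Cst7 at 61.45 to 81.05 CPM in CTL and 64.09 to 80.73 CPM in BLZ945 libraries, and Spp1 at 669.1 to 960.6 and 423.5 to 1227.7 CPM. Gpnmb and Igf1 were at or near 0.

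Homeostatic MG genes gave a median of -0.05, and 0 of 22 passed the test (4, or 18.2%, had an unadjusted p under 0.05, all lower, against 3.61% of all genes). These 4 were Fcrl2, Crybb1, P2ry13 and P2ry12. P2ry12, the ADP receptor, lay at 1608.1, 1820.5 and 1393.7 CPM in CTL and at 939.2, 1386.1 and 1346.3 CPM in BLZ945 libraries, against 14978.7 to 15733.7 CPM in untreated MG. Tmem119 lay at 2400.6 to 2604.3 CPM in CTL and spread from 1668.7 to 3826.3 CPM in BLZ945 libraries. Csf1r had a log2 fold change of -0.20 (SE 0.127) and Cx3cr1 of -0.23 (SE 0.172). The list median was 0.08 without mouse B2m, 0.03 without V2m and -0.23 without B4f, and WT MG gave 0.12. Without mouse B2m, 6 of these genes were higher and 4 lower at an unadjusted p under 0.05, and without B4f 1 was higher and 7 lower. The one-sided count thus depended on mouse B2m.

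Of 18 class I genes, 17 had a positive log2 fold change, as did 5708 of all 11558 genes, and the median was 0.23 (0.28 in WT MG). None passed the test (6, or 33.3%, had an unadjusted p under 0.05, all higher, against 3.05% of all genes). Without mouse B2m the class I median was 0.15, and without B4f it was 0.38 with 11 genes at that p. H2-D1, a classical class I heavy chain, was at 1165.4 to 1329.4 CPM in CTL and at 2114.5, 1851.6 and 1535.9 CPM in BLZ945 libraries. H2-K1 was at 841.5 to 1016.2 CPM in CTL and at 1781.9, 1529.3 and 1104.0 CPM in BLZ945 libraries, with mouse B4f lowest in both genes. Tap1 and Tap2, the peptide transporter, had log2 fold changes of -0.01 and 0.01. Of 10 class II genes tested, 3 (30%) had an unadjusted p under 0.05, all higher, with a median of 0.33. The class II count was 0 without V4f and 0 without B3m, where the median was 0.12, and it was 2 without V1m, V2m or mouse B2m.

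Medians of LPS response groups moved with single mice. The 21 genes of NF-kB subunits and feedback had a median of 0.38, and the 17 of glycolysis, HIF-1 and itaconate of 0.35, with a positive log2 fold change in all 17. Without mouse B2m these medians were -0.03 and 0.03. Without other single mice they were 0.25 (V2m) to 0.54 (B4f) and 0.20 (V2m) to 0.52 (B3m). WT MG gave medians of -0.2 for the NF-kB group and 0.09 for the glycolysis group. The 14 LPS genes that the study itself named had a median of 0.31 (-0.22 in WT MG), which was 0.14 without mouse B2m, 0.50 without B4f and 0.59 without V1m. Since the study chose them on libraries of this series, their direction is not independent evidence. In mouse B2m, Saa3, an acute phase gene, was at 7117.2 CPM, while B3m and B4f held 2040.5 and 1296.9 CPM and CTL libraries 1564.4, 644.5 and 1447.9 CPM. Lcn2, which binds bacterial siderophores, was at 607.3 CPM in mouse B2m, at 193.4 and 71.50 CPM in B3m and B4f and at 55.69 to 116.2 CPM in CTL libraries. The cystine transporter Slc7a11 was at 413.1, 77.13 and 36.19 CPM in the BLZ945 libraries in the same order, and at 57.78 to 84.19 CPM in CTL. The library of mouse B2m had the fewest counts of the 6, 7957064, and held traces of choroid plexus genes, with Ttr at 359.4 CPM and Kl at 10.39 CPM against 107.2 and 0 CPM in B3m. Their part in these results was not tested. No LPS-sensing gene passed the test (0 of 16, with 0 at an unadjusted p under 0.05), nor did any of 32 interferon-stimulated genes (median 0.12, 3 higher and 1 lower at an unadjusted p under 0.05).

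The LPS response as a whole was placed with a list that shares no library with the comparison, the genes called between WT resident MG after LPS and untreated WT MG. This list was added after the data were seen. Against untreated WT MG, 1070 genes were higher (9.08%) and 902 lower (7.65%). The 1049 of the former that were tested had a median log2 fold change between repopulated and resident Ccr2-/- MG of 0.06, and the 872 of the latter had one of -0.07. Without mouse B2m both signs turned, to -0.07 and 0.09. Without B4f they were 0.16 and -0.19. Against untreated MG, edgeR called 2243 genes (19.4%) in resident and 2510 (21.7%) in repopulated Ccr2-/- MG. Both contrasts share the untreated libraries.

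**Figure D3:**
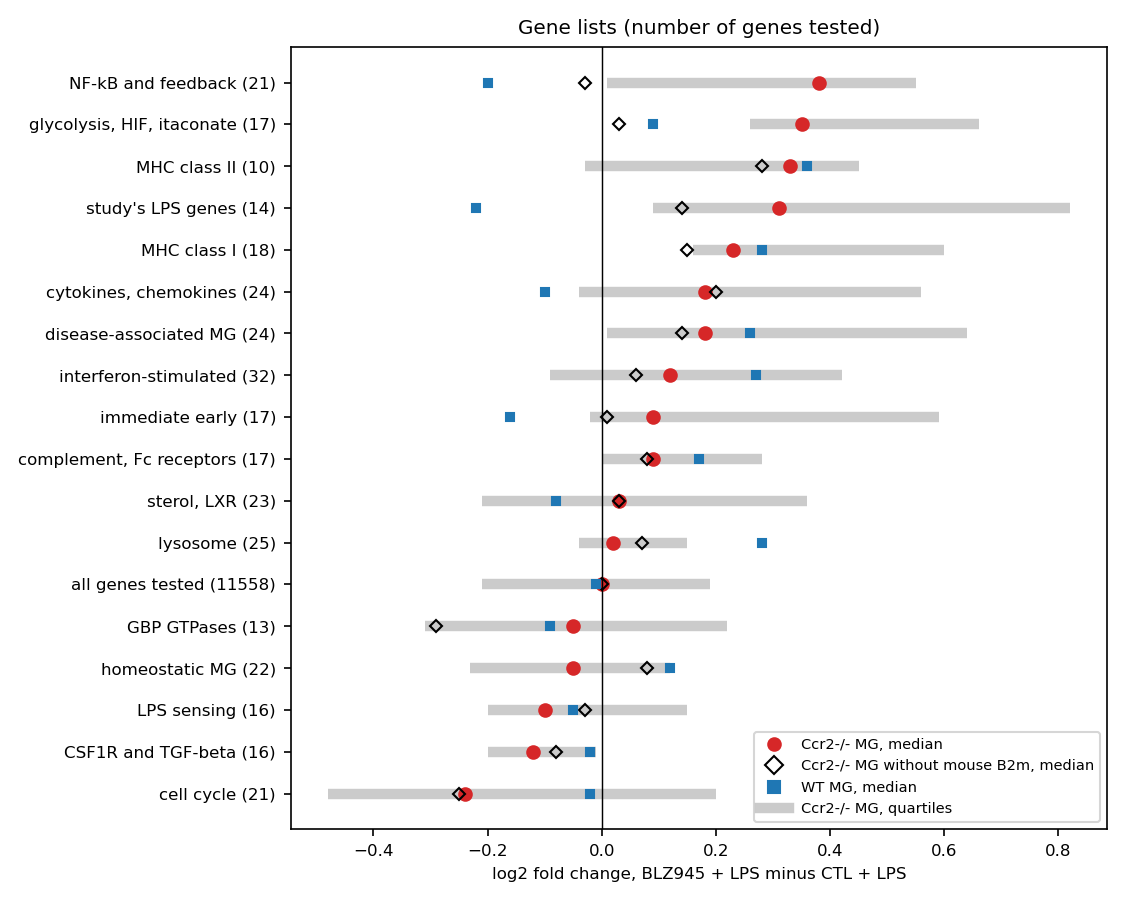
Median log2 fold change between BLZ945 and CTL MG after LPS for gene lists, with the number of genes tested, in Ccr2-/- MG (red, grey bars for quartiles), in Ccr2-/- MG without mouse B2m (open diamonds) and in WT MG (blue). The NF-kB and glycolysis medians move from 0.38 to -0.03 and from 0.35 to 0.03 without mouse B2m.

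No gene of the remaining groups passed the test. Beside the 3.05% of all genes that were higher and the 3.61% that were lower at an unadjusted p under 0.05, their shares varied. Of 25 lysosomal genes tested, Npc2, Ctsh and Ctsz were higher at that p (12%, with 0 genes without V4f), with a list median of 0.02 in Ccr2-/- and 0.28 in WT MG. Of 21 cell cycle genes, 1 was higher (4.76%) and 3 lower (14.3%, median -0.24, and -0.47 without B4f), and of 16 genes of CSF1R and TGF-beta signalling 1 was higher (6.25%) and 2 lower (12.5%, median -0.12). Among 17 complement and Fc receptor genes, 4 were higher, namely C3, Fcer1g, C1qa and Fcgr4 (23.5%, median 0.09). That count was 1 without V1m, V2m or V4f, 2 without mouse B2m or B3m and 8 without B4f. Of 23 sterol and LXR genes, 2 were higher and 1 lower at that p (median 0.03). Heat shock genes reached it in 0 of 12.

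The effect of BLZ945 in MG was last compared with that in sdCAMs of the same Ccr2-/- mice. The test of the difference called 2 of 12890 genes (0.0155%), Lat2 and Rnf122, and 802 (6.22%) had an unadjusted p under 0.05. Lat2, an adaptor of immune receptors, was at 101.98 to 119.59 plain CPM in CTL and 89.35 to 127.02 plain CPM in BLZ945 MG. In sdCAMs it was at 14.07, 16.72 and 17.15 plain CPM in CTL and 48.19, 57.06 and 71.31 plain CPM in BLZ945 libraries (difference of log2 fold changes, MG minus sdCAMs, -1.85, SE 0.27, edgeR adjusted p = 0.0224). Rnf122, a ubiquitin ligase, was at 8.19 to 14.19 plain CPM in the 6 MG libraries. It was at 0, 0.10 and 0 plain CPM in CTL sdCAMs and 4.38, 1.16 and 6.16 plain CPM in BLZ945 sdCAMs (edgeR adjusted p = 0.0306). For both genes the sdCAM groups did not overlap and the MG groups did. In sdCAMs alone 0 of 11941 genes passed (0%, edgeR), and 998 (8.36%) had an unadjusted p under 0.05. With the mouse as a replicate block, 0 genes were called (664 at an unadjusted p under 0.05) and these adjusted p-values were 0.102 and 0.189. Vcam1 had opposite directions, higher in BLZ945 MG and lower in BLZ945 sdCAMs, at 628.46 to 842.86 against 997.28 to 1118.93 plain CPM (difference 1.69, SE 0.288, edgeR adjusted p = 0.058). For Axl the difference was 1.77 (edgeR adjusted p = 0.106), with 355.52 to 508.42 plain CPM in BLZ945 and 430.41 to 491.99 plain CPM in CTL sdCAMs. For Apoe it was 0.71 (edgeR adjusted p = 0.532).

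**Figure D4:**
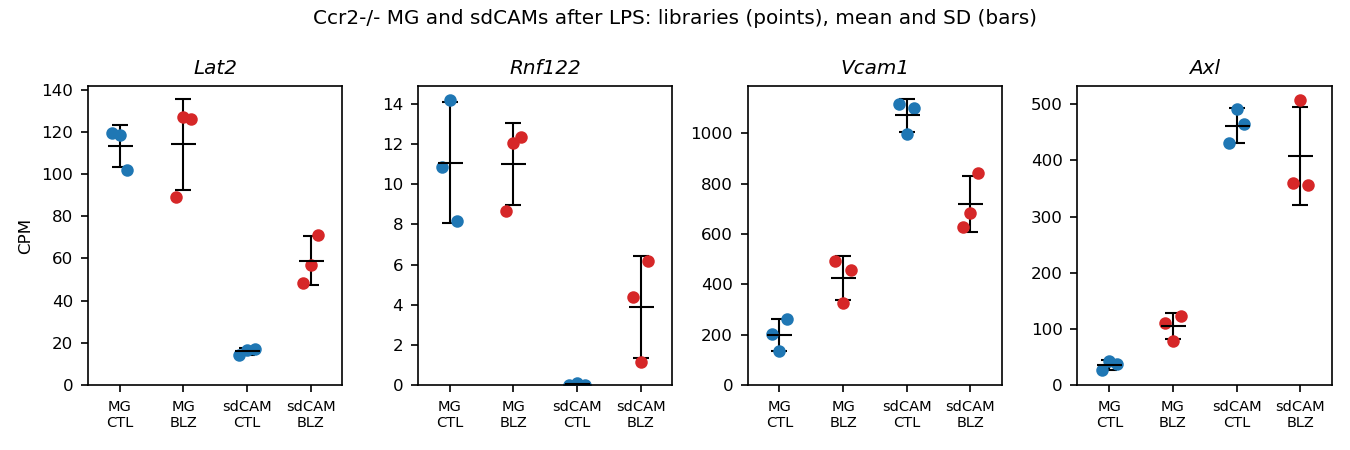
Plain CPM of Lat2, Rnf122, Vcam1 and Axl in MG and sdCAMs of the same 6 Ccr2-/- mice after LPS, with points for libraries and bars for mean and SD (n = 3). For Lat2 and Rnf122 the CTL and BLZ945 libraries are apart in sdCAMs and overlap in MG. Vcam1 lies higher in BLZ945 MG and lower in BLZ945 sdCAMs, at 628.46 to 842.86 against 997.28 to 1118.93.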

How the data were processed

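MG were sorted from brains without choroid plexuses. The authors amplified cDNA (SMARTer), prepared libraries by tagmentation (Nextera XT) and sequenced single reads. Per the submitters' processing notes, STAR 2.7.11a, featureCounts 2.0.8 and bcl2fastq 2.20 were used. The deposited values are whole-number counts per gene symbol (33280 symbols), not normalized. No molecular identifiers were used, so amplification duplicates remain and floors cover counting error only. The strand setting and a single genome build are not given in the sources used here, so overlapping genes on opposite strands are uncertain and coordinates come only from RefSeq. A table of reporter mice, all treated with BLZ945, was not used. Totals of the 9 Ccr2-/- MG libraries were 7957064 to 11330781 counts.

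Counts were fitted with edgeR 4.0.16 in R 4.3.3 (filterByExpr, TMM, quasi-likelihood tests, two-sided, Benjamini-Hochberg over all genes tested). The 9 Ccr2-/- MG libraries shared a fit, as did the 9 WT MG libraries, while the tests between genotypes and between cell types used 18 libraries each. Calls were made at an adjusted p below 0.05 together with a log2 fold change beyond 1 in either direction. Levels are TMM-scaled CPM over the 18 MG libraries. Each library is 1 mouse, and BLZ945 and CTL mice differ, so only MG and sdCAMs are paired, by mouse. Deviations of MG and sdCAMs of one mouse correlated at -0.02 to 0.16. Scripts were tested on simulated data. DESeq2 1.42.0, other filters and scalings, other sets of libraries and omission of single libraries were alternatives.

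The members, the 30 gene lists and the tests were chosen with earlier results of these data known. The rule for named genes took Ccr2, Apoe, every call, list members that passed, up to 4 levels per list and up to 3 calls per interaction. The 28 genes with p under 0.001, the genes of the average over both genotypes, and other genes at an unadjusted p under 0.05 were named after their values were seen. Some genes are not reported here.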

Additional observations from a re-analysis of the deposited data

Results flagged for a closer look

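MG and sdCAMs from the same mice gave different BLZ945 effects for Lat2 and Rnf122 by the test of the difference itself. The difference of log2 fold changes, MG minus sdCAMs, was -1.85 for Lat2 and -6.30 for Rnf122, whose CTL sdCAM libraries were at or near 0, so that its value depends on the prior count. With the mouse as a replicate block neither passed (edgeR adjusted p = 0.102 and 0.189). Groups of 3 libraries are too small for the test of single outlying samples.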

How the results depend on the processing

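The count of calls between repopulated and resident Ccr2-/- MG was 2 and became 26 with DESeq2, 70 with no low-count filter, 0 with only the 6 libraries compared (526 genes at an unadjusted p under 0.05), 1 with the letter m or f as a covariate, 23 in the average with WT MG and 0 to 12 without single libraries. It was 0 without B3m (657 genes at an unadjusted p under 0.05), 1 without each of V1m, V2m, V4f and untreated mouse 3m, and 12 without B4f. With only the 6 libraries, Apoe and Ptger3 had edgeR adjusted p-values of 0.0775 and 0.124, and with all 18 Ccr2-/- libraries 0.00439 and 0.149. Untreated mouse 3m carried Xist at 253.04 plain CPM and Ddx3y at 0.09 against its letter, which touches the covariate fit. Calls in WT MG were 9 and became 47 with DESeq2, 108 with no filter and 0 to 13 without single libraries (0 without CTL replicate 3, BLZ945 replicate 2 or BLZ945 replicate 3, and 1 without BLZ945 replicate 1). The difference between genotypes had 0 calls, 41 with no filter and 0 to 0 without single libraries. The difference between cell types had 2 calls, 43 with DESeq2, 130 with no filter, 0 with the mouse as a replicate block (664 genes at an unadjusted p under 0.05) and 0 to 6 without single libraries (0 without the MG library of V1m, V2m or B2m or the sdCAM library of V1m, 4 to 6 without the sdCAM library of B2m, B3m or B4f or the MG library of B4f). The MG and sdCAM libraries of a mouse are paired, and the block is the paired fit. No paired analysis was possible between BLZ945 and CTL because they are different mice. The contrasts of resident and repopulated MG after LPS with untreated MG gave 4036 and 4406 calls without the fold limit. With the limit and without single libraries they gave 1982 to 2258 and 2170 to 2863 calls. The average over genotypes gave 23 calls, 39 without the fold limit, 76 with DESeq2 and 16 to 43 without single libraries, with 43 without WT CTL mouse 1. Of Ccr2 and the 28 genes with the smallest p, which were the genes refitted under these alternatives, Ccr2 alone changed sign, from a log2 fold change of -0.22 to 0.02 without mouse B2m, with a range of -0.74 to 0.02 without single libraries. The causes of these shifts were not tested. Depth limits genes below a few CPM, and 3 libraries a group limit all others.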
